A study of Homo sapiens with 3 samples.

Results

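LINC-named genes carry a serial number in place of a functional name, under a symbol meant for long intergenic non-coding RNA genes. Not all of them are still typed as such. Their RNA levels were examined in the human bladder cancer line UM-UC-3. The members were chosen by name and by measured level: rows of the gene table whose name is LINC followed only by digits and whose CPM (the count scaled by the library total) averaged at least 1 over the 3 libraries. This gave 144 genes of the 981 LINC-named rows and of the 15132 genes that passed the same threshold. Of the other LINC-named rows, 454 had no count and 383 had counts but stayed below the threshold.

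The shBLACAT2 group (n = 2) consisted of 1 library of cells with each of 2 hairpins against BLACAT2, called shRNA 1 and shRNA 2, and the shControl group (n = 1) was 1 library of cells with a scramble hairpin. All cells had been infected with lentivirus in the presence of polybrene and kept under puromycin until stable lines were obtained, and polyA+ RNA was sequenced after TruSeq stranded mRNA preparation. The series asked which genes depend on BLACAT2. The hairpin libraries are separate lines with different hairpins and the control is a single library, so no spread between control cultures could be measured, and p-values here rest on the difference between the hairpin libraries alone.

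Library totals were 17670199 counts with shRNA 1, 16216947 with shRNA 2 and 16424422 in shControl. The 5 epithelial markers examined were all counted in every library and summed to 2811, 1979 and 2686 TMM-scaled CPM in the same libraries (TMM is edgeR's scaling for library size and composition). The 9 fibroblast and smooth muscle markers summed to 22.9 and 20.4 CPM with shRNA 1 and shRNA 2, against 370 CPM in shControl. Of them 5 passed the threshold, and the fibrillar collagen gene COL1A1 made up most of the control's sum (328 and 162 counts with the hairpins, against 5253). FAP (8 and 21, against 102), PDGFRB (15 and 31, against 152), COL1A2 (0 and 1, against 16) and COL3A1 (0 and 1, against 20) were lower with both hairpins as well. ACTA2 (38 and 107, against 38) and MYH11 (20 and 28, against 26) were not, and LUM (0 and 0, against 2) and DCN (2 and 1, against 2) were close to 0. Among the epithelial markers CDH1 (5201 and 4565 counts, against 1877) and EPCAM (4377 and 2951, against 2131) were higher with both hairpins. KRT7 (20236 and 13229, against 19944), KRT8 (16188 and 9813, against 12281) and KRT18 (4500 and 3591, against 4538) were not. The part of these marker differences in the results below was not tested. The 6 leukocyte markers summed to at most 2.09 CPM in any library, with CD68 at 0, and the 5 endothelial markers to at most 7.88 CPM.

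Long non-coding RNAs act in many ways: some bind and titrate proteins, some act at the locus they are made from, some encode short proteins that were overlooked when they were named, and for most no function is known. Many start close to, and head to head with, a protein-coding gene, where a shared promoter region is transcribed in both directions. In bladder cancer, BLACAT2 is known for its link to lymphatic metastasis.

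BLACAT2 is listed as LINC00958 (ENSG00000251381; hg38, chromosome 11, 12961842 to 12989548, minus strand; 7 exon blocks), and it was among the most abundant members. It had 816 counts with shRNA 1 and 1062 with shRNA 2, against 938 in shControl. Its deposited level was 7.73 FPKM with shRNA 1 and 11.0 with shRNA 2, against 9.56 in shControl (FPKM corrects a level for gene length and library size). The hairpin libraries thus lay on either side of the control. By mean FPKM it ranked 5 of the 144 members, and in single libraries it ranked 5, 3 and 6. On the TMM scale shRNA 1 was at 73.5% of shControl (ratio 0.735, 95% counting interval 0.668 to 0.808) and shRNA 2 at 99.6% (ratio 0.996, 0.911 to 1.09). Of the members, 38 had a lower log2 fold than the target with shRNA 1, and 57 had a lower one with shRNA 2. The hairpin group averaged 53.5 ± 11.4 CPM (SD, n = 2), against 61.8 CPM in shControl (n = 1), and edgeR's quasi-likelihood test gave a log2 fold of -0.21 ± 0.34 (SE), adjusted p = 0.913. No depletion of the target was detectable in the library labelled shRNA 2, so the name shRNA 2 stands for a label throughout. With library totals as the scaling its log2 fold with shRNA 2 was 0.20 in place of -0.01.

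The highest member in every library was LINC00657 (chromosome 20, 36045622 to 36050960, minus strand, a single exon block). It is better known as NORAD, a cytoplasmic RNA that holds many sites for the Pumilio proteins and keeps those proteins from other RNAs. It had 10957 counts with shRNA 1 and 12329 with shRNA 2, against 8754 in shControl. Its FPKM was 116 and 142, against 99.8. NORAD alone therefore gave 36.6% and 38.4% of all counts on members with shRNA 1 and shRNA 2, against 34.7% in shControl. Its ratio to shControl was 1.06 (95% counting interval 1.03 to 1.09) with shRNA 1 and 1.24 (1.20 to 1.27) with shRNA 2. The sequence feature that NORAD is known for sets it apart among the members too. The Pumilio motif TGTANATA, searched on the sense strand of each gene's longest GENCODE 29 transcript, occurred 15 times in its 5339 bases (2.81 per kilobase), while 117 members had no match, 22 had 1 and 4 had 2. The first 6 matches are shown with 8 bases on each side, 5′ to 3′, with the motif in capitals; they begin at bases 761, 1140, 1241, 1442, 1451 and 1825 of the transcript.
NORAD match 1: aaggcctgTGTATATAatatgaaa
NORAD match 2: cactactgTGTATATAgttgacaa
NORAD match 3: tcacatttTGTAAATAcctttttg
NORAD match 4: cttatctgTGTATATAgtgtacat
NORAD match 5: gtatatagTGTACATAaaggacag
NORAD match 6: taccacttTGTAAATAtctttttg
A match is a stretch of letters and not a bound site. Of NORAD's 50-base windows, 33.2% also occur in other genes of the table, so some of its reads could have been counted elsewhere.

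**Figure D1:**
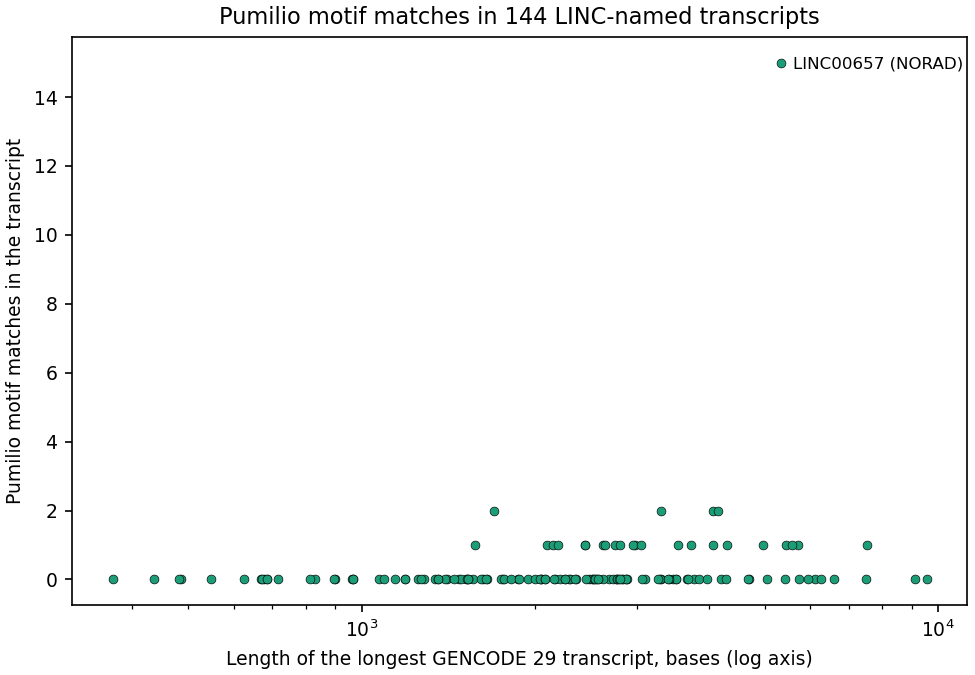
Matches to the Pumilio motif TGTANATA (vertical axis) against the length of each member's longest GENCODE 29 transcript in bases (horizontal log axis); each point is 1 of 144 LINC-named genes. LINC00657 (NORAD) has 15 matches and no other member has more than 2.

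Below NORAD, levels dropped steeply. The 10 members of highest mean CPM took 63.0% and 61.0% of the member counts with shRNA 1 and shRNA 2, against 64.1% in shControl. The median member was at 1.06 FPKM with shRNA 1 and 1.30 with shRNA 2, against 0.828 in shControl, below the medians of protein-coding genes (3.79 and 4.08, against 3.47) and close to those of other long non-coding genes (1.04 and 1.34, against 0.843). All members together took 0.169% and 0.198% of each hairpin library, against 0.154% of shControl.

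Of the other abundant members, LINC01127 had 1951 and 2489 counts with shRNA 1 and shRNA 2, against 1887 in shControl, a log2 fold of -0.19 and 0.21. LINC00704, also named MANCR for its link to mitosis, had 16.9 and 3.46 FPKM, against 16.2. LINC01224 had 16.8 and 6.47 FPKM, against 11.8. For both of these only the shRNA 2 library was low. LINC00857 had 357 and 416 counts, against 192, and was higher with both hairpins (log2 fold 0.65 and 0.92). LINC00205 (168 and 186 counts, against 167) and LINC00674 (63 and 105, against 73) had log2 folds between -0.44 and 0.33.

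**Figure D2:**
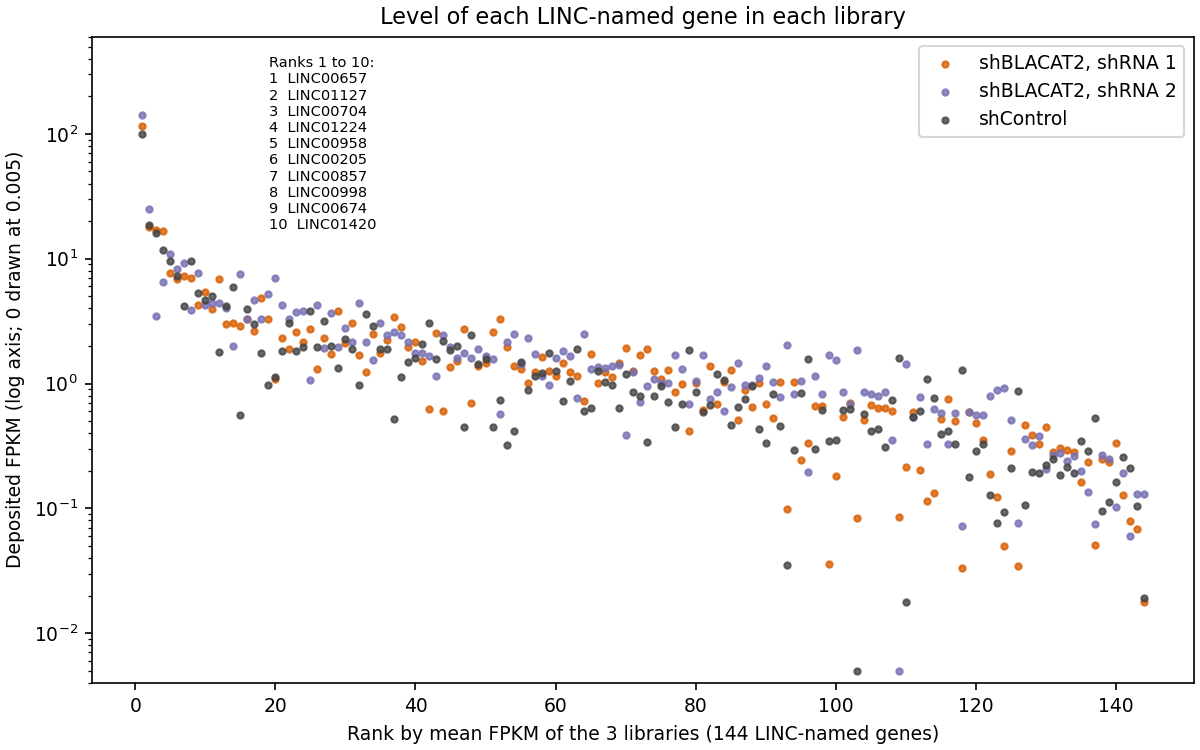
Deposited FPKM (vertical log axis, 0 drawn at 0.005) of the 144 LINC-named genes, ranked by their mean over the 3 libraries (horizontal axis); orange, purple and grey points are shRNA 1, shRNA 2 and shControl. NORAD stands at 99.8 to 142 FPKM, LINC00958 is ranked 5, and the median member is near 1 FPKM.

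The 144 members lay on 23 chromosomes, 21 of them on chromosome 1 and 15 on chromosome 2. GENCODE 29 types 100 as intergenic non-coding RNA, 13 as processed transcript, 10 as antisense and 9 as protein-coding. The rest are 7 transcribed unprocessed pseudogenes, 2 transcribed processed pseudogenes, 2 bidirectional promoter RNAs and 1 sense-overlapping RNA. The median member had 3218.5 exonic bases in 5 exon blocks, against 4778 bases in 10 blocks over all genes tested, and 18 members had a single exon block. The threshold was reached in all 3 libraries by 101 members, in 2 by 25 and in 1 by 18 (2 with shRNA 1 alone, 9 with shRNA 2 alone and 7 in shControl alone). Such members passed through the library where they were high, so counts of changed members below are descriptions. The members just inside the threshold were LINC01359 (12 and 21 counts with shRNA 1 and shRNA 2, against 17), LINC01023 (13 and 31, against 7) and LINC01389 (24 and 19, against 9), and those just outside were LINC00479 (18 and 23, against 9), LINC00893 (21 and 13, against 16) and LINC00624 (16 and 19, against 13).

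Over the whole table, edgeR's quasi-likelihood test called no member at an adjusted p below 0.05, where 0.0397% of all genes tested were called (6 of 15132). The smallest adjusted p among the members was 0.115, for LINC01583. At an unadjusted p below 0.05 it listed 15 members, 7 higher and 8 lower, which is 10.4% of them against 10.2% of all genes. DESeq2 called 3 members (2.08%, against 3.48% of all genes), LINC01123, LINC01583 and LINC01239, and left 19 without an adjusted p. Their adjusted p ranged from 0.0254 to 0.206, from 0.032 to 0.198 and from 0.0364 to 0.229 over the tests and scalings tried. limma called 0 members and 0 genes. The test has a single degree of freedom for the spread and assumes that the lone control varies like the hairpin libraries.

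By size alone, 26 members (18.1%) were at least 2-fold away from shControl with both hairpins in the same direction, where 9.79% of all genes tested were. They comprised 16 higher members (11.1%, against 5.29% of all genes) and 10 lower ones (6.94%, against 4.5%). With library totals as the scaling, which moves the median log2 fold of all genes to 0.14 and 0.24, the split was 20 higher and 8 lower members and 1030 higher and 553 lower genes, in place of 800 and 681. The surplus lay among weakly counted genes: of members with a mean of 1 to 5 CPM 26.4% were in this class (23 of 87, against 14.9% of all genes at that level), and of those with at least 5 CPM 5.26% were (3 of 57, against 8.3%). Of the 16 higher members, 10 were below 1 CPM in shControl. Of the 10 lower members, 7 were below 1 CPM with both hairpins. In bulk RNA, fewer cells that express a gene and less RNA per cell cannot be told apart.

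The 95% counting intervals of both ratios lay above 1 for 15 of the 16 higher members and below 1 for all 10 lower ones, 25 in all (17.4%, against 9.64% of all genes tested). Since the 26 were taken for their size with both hairpins, this count describes them and supports nothing further. Over all members such intervals lay above 1 for 30 (20.8%, against 20.1% of all genes) and below 1 for 22 (15.3%, against 21.3%). The median log2 fold over all 144 members was 0.07 with shRNA 1 and 0.23 with shRNA 2, against 0.01 and 0.04 over all genes tested and 0.17 and 0.33 over other long non-coding genes. The folds with shRNA 1 and with shRNA 2 share the control library.

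**Figure D3:**
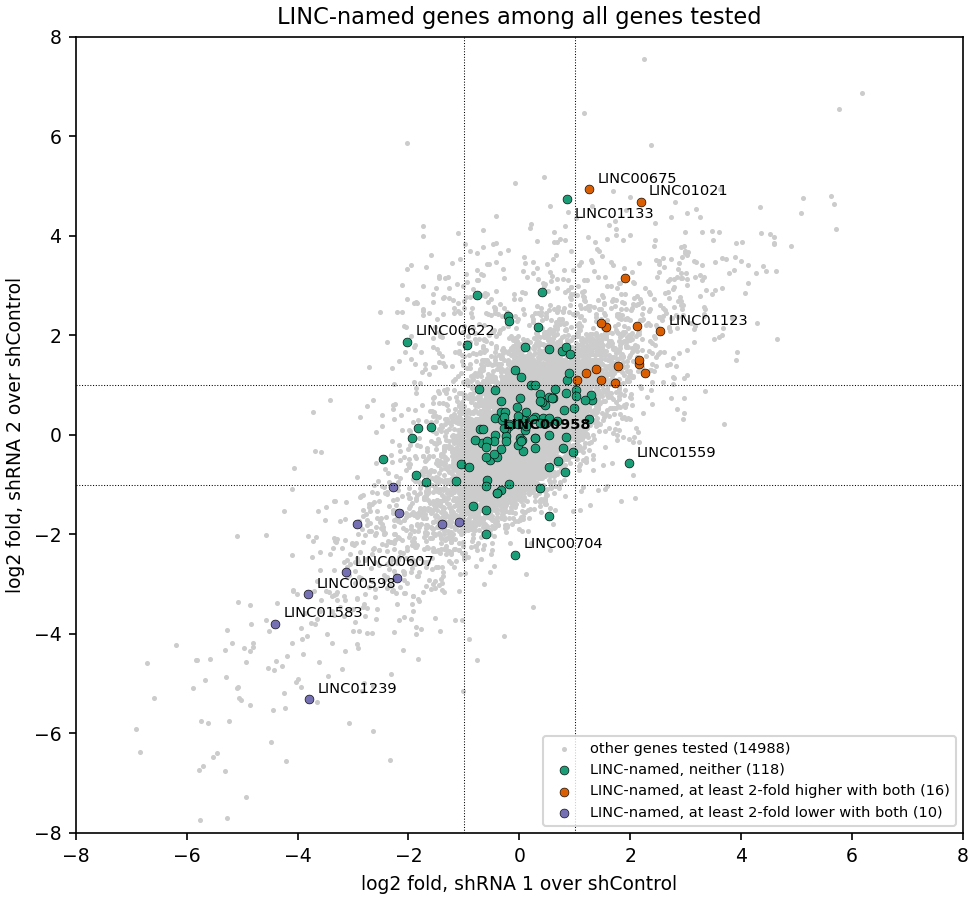
Log2 fold of TMM-scaled CPM over shControl with shRNA 1 (horizontal axis) and shRNA 2 (vertical axis) for the 144 LINC-named genes (coloured) and the other 14988 genes tested (grey); dotted lines mark 2-fold. The 16 members higher with both hairpins are orange, the 10 lower ones purple, and LINC00958 lies near the centre; both axes use the same control library.

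Among the 10 lower members, LINC01583 (chromosome 15) had 2 and 4 counts with shRNA 1 and shRNA 2, against 72 in shControl. Its ratio to shControl was 0.0235 (95% counting interval 0.00279 to 0.0879) with shRNA 1, its log2 folds on the scale with the prior count were -4.40 and -3.79, and edgeR gave -4.74 ± 0.77 (SE), adjusted p = 0.115. LINC01239 (chromosome 9) had 4 and 0 counts, against 70, at least 26.5-fold lower with shRNA 2 when the floor of 3 counts per library is used. LINC00598 (chromosome 13) had 2 and 4 counts, against 47. In all 3 genes the hairpin libraries were close to empty, and the control was far above them.

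LINC00607 (chromosome 2) had 6 and 8 counts with shRNA 1 and shRNA 2, against 58 in shControl (log2 fold -3.12 and -2.76). LINC01605 had 13 and 7 counts, against 57 (-2.20 and -2.88). LINC01537 had 5 and 13 counts, against 44 (-2.92 and -1.79). In these 3 genes the hairpin libraries kept a few counts each. LINC00941 had 22 and 33 counts, against 90 (-2.17 and -1.57), LINC01358 had 13 and 9, against 32 (-1.40 and -1.80), and LINC01293 had 14 and 34, against 64 (-2.27 and -1.05). LINC01137 was the best counted of the 10, with 75 and 45 counts, against 137 (-1.09 and -1.75).

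Among the 16 higher members, LINC01123 (chromosome 2, 109987063 to 109996140, plus strand) was the most strongly counted, with LINC01547. It had 286 and 199 counts with shRNA 1 and shRNA 2, against 40 in shControl. Its log2 folds were 2.54 and 2.08, and edgeR gave 2.38 ± 0.55 (SE), adjusted p = 0.203. LINC01106 (chromosome 2, 110375138 to 110384442, minus strand) had 156 and 73 counts, against 26 (2.26 and 1.25). These 2 genes are copies on opposite strands: of their 50-base windows 92.8% and 90.5% occur in other genes of the table, each other included. In a local alignment of their longest transcripts (2436 and 2443 bases), 1410 of 1411 aligned bases were identical. That alignment also held 186 gap bases and did not cover the whole of either transcript. The separate values of the 2 genes are therefore uncertain. Summed, they had 442 and 272 counts, against 66 (log2 fold 2.50 and 1.86). The 300 bases around the first listed RefSeq start (GRCh38.p14) are printed for both, LINC01123 at chr2:109986730-109987029 on the plus strand and LINC01106 at chr2:110384487-110384786 on the minus strand, to show that the copy extends over the promoter: 289 bases aligned identically with 0 mismatches, and the windows are offset so that 22 bases in all stayed unaligned.
LINC01123 promoter: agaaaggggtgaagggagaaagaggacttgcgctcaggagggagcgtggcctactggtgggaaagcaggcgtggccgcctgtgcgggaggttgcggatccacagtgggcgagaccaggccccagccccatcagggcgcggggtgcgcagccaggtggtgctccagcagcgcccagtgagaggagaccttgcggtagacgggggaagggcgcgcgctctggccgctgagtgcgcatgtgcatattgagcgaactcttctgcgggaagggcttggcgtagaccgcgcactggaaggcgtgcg
LINC01106 promoter: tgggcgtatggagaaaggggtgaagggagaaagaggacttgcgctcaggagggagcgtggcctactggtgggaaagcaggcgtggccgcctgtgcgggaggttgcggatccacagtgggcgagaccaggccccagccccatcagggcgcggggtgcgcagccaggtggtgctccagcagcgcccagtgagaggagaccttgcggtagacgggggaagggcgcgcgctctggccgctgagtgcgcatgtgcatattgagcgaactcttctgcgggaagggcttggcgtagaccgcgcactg

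LINC01021, also named PURPL and known as a p53-induced RNA that restrains p53, had 13 and 80 counts with shRNA 1 and shRNA 2, against 1 in shControl. The ratio was 11.0 (95% counting interval 1.65 to 467) with shRNA 1 and 70.4 (12.3 to 2813) with shRNA 2, so its size is poorly bounded. LINC00675, now annotated as the protein-coding gene TMEM238L, had 3 and 61 counts, against 0. With shRNA 2 it exceeded shControl at least 17.9-fold, and with shRNA 1 both it and the control were at or under the floor of 3 counts, so no fold is given there. Its place among the 16 rests on a log2 value of 1.26 that the prior count sets, and without it there are 15. Both genes had far more counts in the shRNA 2 library than in the shRNA 1 library.

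LINC01176 had 33 and 33 counts with shRNA 1 and shRNA 2, against 5 in shControl (log2 fold 2.13 and 2.18). LINC01589 had 28 and 67, against 5 (1.90 and 3.16). LINC01547 had 180 and 262, against 50 (1.57 and 2.16). In each of these both hairpin libraries lay above the control. LINC00501 had 50 and 83 counts, against 14, LINC00677 had 39 and 23, against 6, and LINC01273 had 50 and 28, against 8. LINC00887 had 42 and 30 counts, against 9, LINC01315 had 25 and 23, against 7, and LINC00431 had 83 and 49, against 20. LINC00886 had 78 and 78 counts, against 31, and was the smallest of the named higher members with shRNA 1 (log2 fold 1.05). The other two higher members, LINC01125 and LINC01126, fall outside the naming rule and are given here after their values were seen: LINC01125 had 87 and 86 counts, against 31, and LINC01126 had 30 and 22, against 8.

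**Figure D4:**
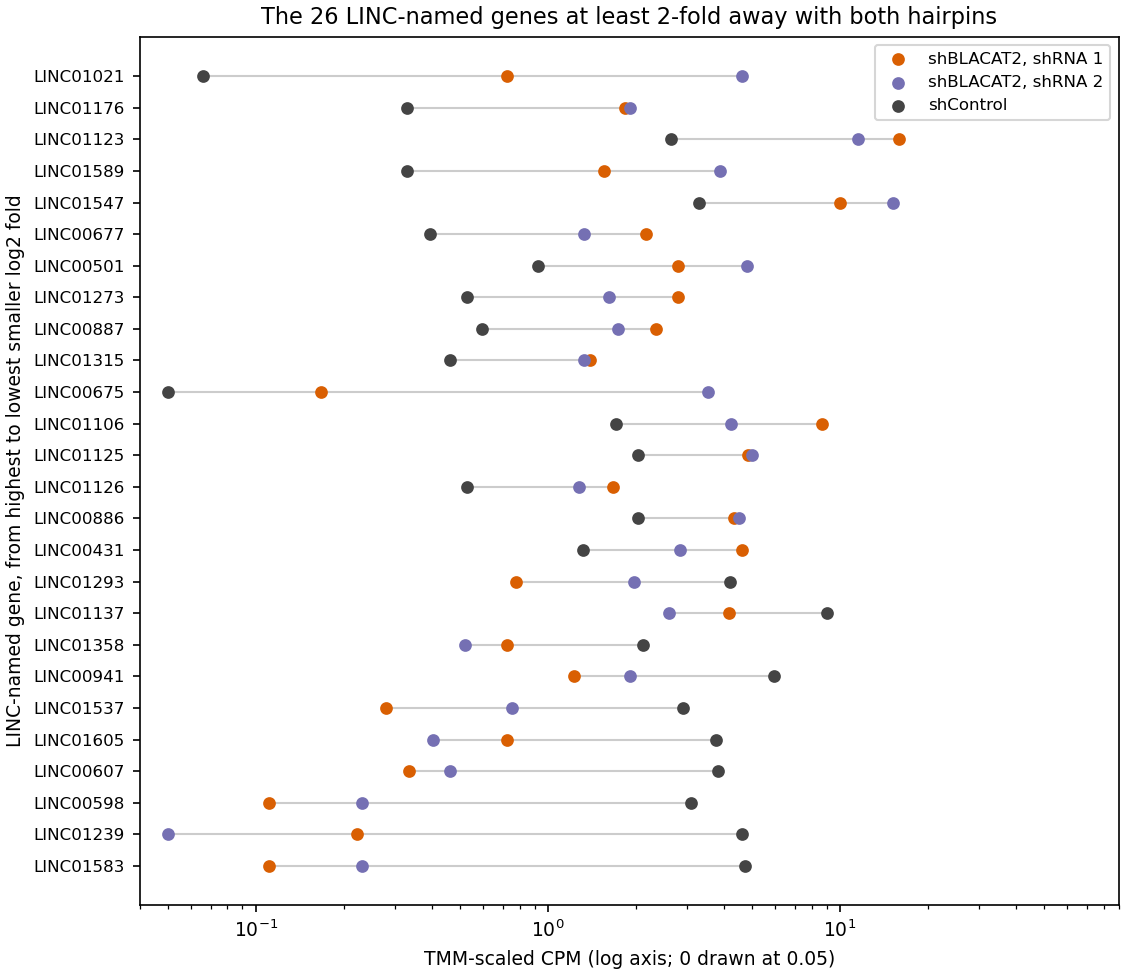
TMM-scaled CPM (horizontal log axis, 0 drawn at 0.05) of the 26 LINC-named genes at least 2-fold away from shControl with both hairpins, from the highest to the lowest smaller log2 fold; each row is 1 gene and each point 1 library. In the upper 16 rows both hairpin points lie right of the grey control point, and in the lower 10 rows both lie left of it.

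Promoter letters were searched for 4 motifs on both strands of the 300-base windows, for which RefSeq gave a first start for 106 of the 144 members. The AP-1 motif TGANTCA was in 14 member windows (13.2%), in 0 of the 15 higher and 2 of the 6 lower members with a window, and in 7.76% of all 27305 windows. The TEAD motif GGAATG was in 10 (9.43%, against 14% of all windows), 1 higher and 2 lower. The interferon-stimulated response element (ISRE) was in 3 (2.83%, against 3.65%), and the ATF4 motif TGATGNAA in 3 (2.83%, against 3.67%). These counts are descriptions of letters in 1 window per gene. The 2 lower members whose window holds TGANTCA are printed with every match in capitals, LINC00607 (chr2:215843487-215843786, minus strand, with a GGAATG match as well) and LINC01358 (chr1:59020226-59020525, plus strand, with 2 ISRE matches on the other strand).
LINC00607 promoter: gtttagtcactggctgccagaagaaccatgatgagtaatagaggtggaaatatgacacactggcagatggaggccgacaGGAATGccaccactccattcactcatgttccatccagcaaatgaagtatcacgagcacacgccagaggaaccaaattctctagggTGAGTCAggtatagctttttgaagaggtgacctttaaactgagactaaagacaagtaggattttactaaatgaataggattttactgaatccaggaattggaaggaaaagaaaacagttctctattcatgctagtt
LINC01358 promoter: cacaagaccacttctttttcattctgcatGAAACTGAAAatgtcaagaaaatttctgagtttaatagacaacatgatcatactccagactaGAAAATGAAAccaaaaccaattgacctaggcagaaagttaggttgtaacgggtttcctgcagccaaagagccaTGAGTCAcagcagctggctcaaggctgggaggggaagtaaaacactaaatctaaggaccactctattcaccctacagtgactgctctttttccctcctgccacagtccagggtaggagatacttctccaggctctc

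The nearest protein-coding gene was examined for each member, since many of these RNAs are made beside one. Over all 144 members, with the neighbour tested or not, the median distance was 16239 bases. A tested neighbour was found for 116 members (113 distinct genes). Of the 113, 16 (14.2%, against 9.79% of all genes tested) were themselves at least 2-fold away with both hairpins in the same direction. Of the 26 members of that class 20 had a tested neighbour, 10 among the higher and 10 among the lower ones. In 4 the neighbour was at least 2-fold away in the member's direction, and in 0 in the opposite one, and all 4 were lower members.

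FOXO1, a forkhead transcription factor of insulin signalling, lies 19860 bases from LINC00598 and had 264 and 251 counts with shRNA 1 and shRNA 2, against 1763 in shControl. Its log2 folds were -2.97 and -2.99, and edgeR's adjusted p was 0.0696. ZC3H12A, which encodes an RNase that degrades inflammatory mRNAs, starts 141 bases from LINC01137 on the other strand and had 369 and 372 counts, against 746 (-1.25 and -1.18). CAPRIN2, near LINC00941, had 320 and 280 counts, against 551 (-1.02 and -1.16). DMRTA1, a DM-domain gene 190460 bases from LINC01239, had 21 and 9 counts, against 68 (-1.84 and -2.84). In each of the 4 pairs the gene and its LINC neighbour were lower in both hairpin libraries. The other named members had neighbours that did not follow them at this size: EFTUD1, beside LINC01583, had 835 and 904 counts, against 576, and FBLN1, a matrix protein gene beside LINC01589, had 1295 and 771, against 1964, while LINC01589 was higher. CEBPB, a leucine zipper transcription factor gene beside LINC01273, had 916 and 2293 counts, against 861. TBL1XR1, beside LINC00501, had 9900 and 9192, against 4099 (log2 fold 1.03 and 0.98). ANKRD10, the nearest to LINC00431, had 3705 and 2733, against 1315 (1.25 and 0.87). TBL1XR1 and ANKRD10 were thus higher with both hairpins, like the LINC gene beside each, and missed the 2-fold rule with shRNA 2 only.

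For 14 members the neighbour starts head to head within 2000 bases and does not overlap the LINC gene. The neighbour had more counts than the LINC gene in every library in all 14. TNFAIP2 had 1558 and 2136 counts with shRNA 1 and shRNA 2, against 936 in shControl, beside LINC00677. FAM207A had 545 and 604, against 286, beside LINC01547. ZFP36L2, which encodes a protein that promotes mRNA decay, had 2223 and 2934, against 1252, beside LINC01126. In these 3 pairs both genes were higher with both hairpins, and the LINC gene by the larger log2 fold. The 3 LINC genes were taken from the 2-fold higher members, so their larger fold is partly fixed by that choice. Over all 14 pairs the median log2 fold with shRNA 1 and shRNA 2 was 0.47 and 0.32 for members and 0.15 and 0.30 for neighbours. Beside LINC01125, ACTR1B had 948 and 1212 counts, against 867 (-0.11 and 0.30), so this pair did not share the direction with shRNA 1. LINC01136, chosen after its values were seen, starts 182 bases from BTG2, an antiproliferative gene induced by p53, and had 7 and 46 counts, against 4. BTG2 had 754 and 2666, against 727, so both genes of that pair were high in the shRNA 2 library only. Over the 14 pairs the Pearson correlation between the log2 folds of member and neighbour was 0.60 with shRNA 1 and 0.92 with shRNA 2, and 0.62 and 0.77 without the 2 most extreme neighbours. These are descriptions across gene pairs that share libraries, control and scaling. Opposite-strand pairs that overlap at starts within 2000 bases are outside the 14, and their directions were mixed. With shRNA 2 the log2 folds of member and neighbour were 2.29 and -0.59 for LINC00649 and ATP5O. They were 0.49 and -0.43 for LINC00894 and CXorf40B, and 0.82 and -0.52 for LINC00909 and ZNF407. For LINC01024 and PURA they were 0.34 and -0.27. LINC00476 and ERCC6L2 (0.66 and 1.23) and LINC01006 and RNF32 (0.14 and 0.35) shared a direction.

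**Figure D5:**
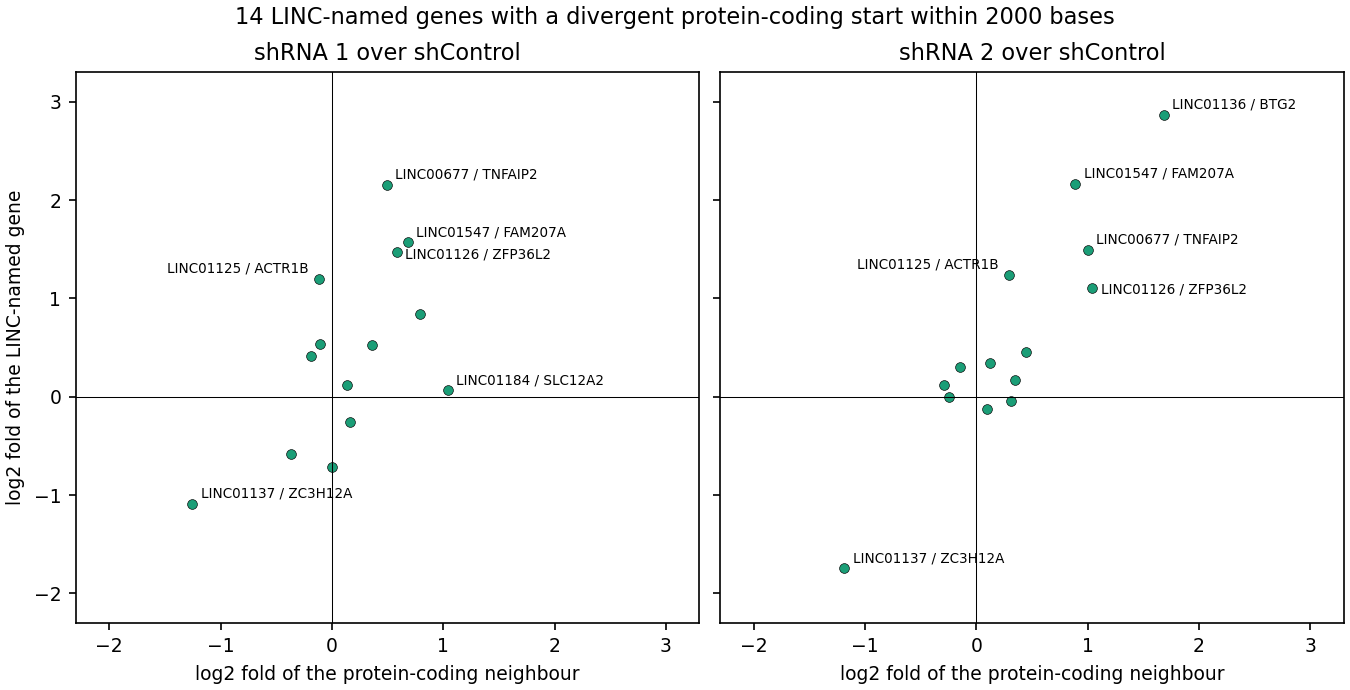
Log2 fold over shControl of the LINC-named gene (vertical axis) and of its head-to-head protein-coding neighbour (horizontal axis) for 14 pairs whose starts lie within 2000 bases, with shRNA 1 left and shRNA 2 right. Pairs that overlap at their starts are not drawn. LINC01137 and ZC3H12A are low in both panels, and LINC01136 and BTG2 are high with shRNA 2 only.

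Members also differed between the hairpin libraries. At least 2-fold differences between shRNA 2 and shRNA 1 were found for 37 members, 25 higher with shRNA 2 (17.4%, against 8.35% of all genes tested) and 12 lower (8.33%, against 4.48%). The 95% counting interval of the ratio excluded 1 in 35 of the 37. Since the 37 were taken for their size, this count describes them and supports nothing further. The matching share over all genes was not computed. Against shControl, 23 members were higher by that size with shRNA 1 (16%, against 7.92% of all genes) and 19 lower (13.2%, against 7.38%). With shRNA 2, 33 were higher (22.9%, against 13%) and 20 lower (13.9%, against 8.76%). These counts include the members changed with both hairpins. With 1 library per hairpin, these differences compare libraries and have no test.

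LINC00622 (chromosome 1) was the only member 2-fold away in opposite directions, with 43 counts with shRNA 2 and 1 with shRNA 1, against 9 in shControl. LINC01133 had 113 counts with shRNA 2 and 6 with shRNA 1, against 2. LINC00675, given above, was the third. The lowest were LINC01559, with 49 counts with shRNA 2 and 308 with shRNA 1, against 65, and LINC00704 (MANCR), with 126 counts with shRNA 2 and 670 with shRNA 1, against 597. LINC00705, on the opposite strand within LINC00704 on chromosome 10, had 11 counts with shRNA 2 and 59 with shRNA 1, against 34. LINC01559 was thus high with shRNA 1, while LINC00704 and its overlapping partner were low with shRNA 2. Reads of LINC00704 and LINC00705 can be told apart only if the counting used strand, which is not given in the sources used here.

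Members within 50000 bases of each other formed 4 pairs. LINC01291 and LINC01293, 1840 bases apart on chromosome 2, were both low with shRNA 1 (log2 fold -2.45 and -2.27) and less so with shRNA 2 (-0.50 and -1.05). LINC00319 and LINC00313, 8201 bases apart on chromosome 21, were low with shRNA 1 (-1.83 and -1.94) and close to shControl with shRNA 2 (0.13 and -0.06). Of their 50-base windows 89.6% and 44.4% occur in other genes of the table (CU639417.4 for LINC00319 and LINC01669 for LINC00313), so both genes' values are uncertain. LINC00526 and LINC00667 overlap on chromosome 18 (-0.43 and 0.12 with shRNA 1, 0.89 and 0.47 with shRNA 2).

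Of 13 LINC names with a known role or product that had been listed, 12 were in the table and 8 were members. Of these 4 encode small proteins. LINC01420 encodes NBDY, a microprotein of mRNA decapping bodies, and had 215 and 156 counts with shRNA 1 and shRNA 2, against 173 in shControl. LINC00116 encodes the mitochondrial microprotein MTLN (109 and 82 counts, against 75), and LINC00493 encodes SMIM26 (61 and 61, against 43). Each stayed within 2-fold of shControl with both hairpins. LINC00998, which encodes SMIM30, had 430 and 218 counts, against 550 (log2 fold -0.60 and -1.51).

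LINC00152, the cytoskeleton regulator RNA CYTOR, had 136 and 217 counts with shRNA 1 and shRNA 2, against 371 in shControl. Its ratio was 0.310 (95% counting interval 0.253 to 0.378) with shRNA 1 and 0.514 (0.433 to 0.610) with shRNA 2, just short of 2-fold in the second, and edgeR's adjusted p was 0.432. LINC01503, an RNA known from squamous carcinomas, had 44 and 263 counts, against 43. It was close to shControl with shRNA 1 and 5.38-fold its level with shRNA 2 (3.89 to 7.61). NORAD and LINC01021 are the other two of the 8. Those below the threshold were LINC00473 (0 and 1 counts, against 1), LINC00460 (0 and 1, against 4), LINC00961 (2 and 1, against 12) and LINC00261 (0 in every library).

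Of 39 long non-coding RNAs listed by names of another kind, 33 were tested under those names. The list also held NORAD and CYTOR, which appear here as the members LINC00657 and LINC00152 and are not among the 33. Of the 33, 3 were at least 2-fold higher and 2 at least 2-fold lower with both hairpins, where 5.29% and 4.5% of all genes tested were. TINCR, an RNA of epidermal differentiation, was higher (log2 fold 2.00 with shRNA 1 and 2.31 with shRNA 2), as were CRNDE (1.18 and 1.48) and BLACAT1 (1.58 and 1.10). MEG3, an imprinted RNA, was lower (-2.17 and -2.46), as was MIR22HG (-1.09 and -1.48). The median log2 fold of the 33 was 0.34 and 0.80, against 0.07 and 0.23 for the 144 LINC-named genes.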

How the data were processed

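RNA sequencing libraries of UM-UC-3 cells were aligned with TopHat2 2.0.9 to hg38, per the submitters' processing notes. The authors deposited whole-number counts per gene and FPKM values; the counting tool, its strand setting and its annotation are not stated by these sources. The table has 50871 lines, of which 50867 genes were used; 1 gene, TGFB1, broken over several lines, was left out. Library sizes were scaled by TMM (edgeR 4.0.16, R 4.3.3). Log2 folds are differences of log2 TMM-scaled CPM with a prior count of 2, which understates folds of low genes. The shBLACAT2 and shControl groups were compared over the 15132 genes that averaged 1 CPM or more by edgeR's quasi-likelihood test with Benjamini-Hochberg adjustment (threshold 0.05), with DESeq2 1.42.0 and limma 3.58.1 as alternatives. The test was also run on simulated data with known folds, set to be the same in both hairpin libraries. The real hairpin libraries differ from each other, so that run cannot show how the test performs on these data. Counting intervals are exact conditional binomial 95% intervals, and the floor for a count of 0 is 3 counts per library; both cover counting error only, since reads without molecular identifiers are not independent molecules. All 144 members were found at the same place in GENCODE 29, which supplied types, transcripts and neighbours; 50-base windows were searched against transcripts of the other genes of the table. Promoter windows are RefSeq's.

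The members and lists were chosen with earlier results of these data known. Named were LINC00958, members called by edgeR, members at least 2-fold away with both hairpins (the 12 highest and 12 lowest by the smaller log2 fold where there were more than 24), the 10 highest by mean FPKM, the 3 highest and 3 lowest by shRNA 2 over shRNA 1, members of the known-role list, the 3 members just inside and 3 rows just outside the threshold, and the nearest protein-coding genes of members named for their fold. Nothing in the labels says how the libraries relate beyond the hairpins, so p-values measure only the spread between these samples. Alternatives were DESeq2's size factors, library totals, other thresholds on mean CPM, a prior count of 0.5, other size rules, each hairpin library left out, and members that overlap no other gene.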

Additional observations from a re-analysis of the deposited data

How the results depend on the processing

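Counts of members moved with the size rule, the threshold on mean CPM and the hairpin libraries used. The 16 higher and 10 lower members at least 2-fold away with both hairpins became 26 and 39 with no threshold (4.11% and 4.89% of 31171 genes), 2 and 1 at a mean of at least 5 CPM (4.57% and 3.78% of 11716 genes), 9 and 6 among members that overlap no other gene (share over all genes not computed), 31 and 20 under a 1.5-fold rule (11.1% and 8.52% of all genes), and 4 and 6 under a 3-fold rule (1.9% and 2.27%). With 1 hairpin library left out they were 23 to 33 and 19 to 20: without shRNA 1 there were 33 higher and 20 lower members (13% and 8.76% of all genes), and without shRNA 2 there were 23 and 19 (7.92% and 7.38%). Among members that share under 20% of their 50-base windows, an alternative chosen after seeing the data, they were 13 and 10. With no threshold and at 5 CPM, shRNA 1 gave 51 and 6 higher and 69 and 2 lower members (23 and 19 at 1 CPM), shRNA 2 gave 89 and 9 higher and 61 and 6 lower (33 and 20), and shRNA 2 over shRNA 1 gave 74 and 5 higher and 29 and 6 lower (25 and 12). Over all genes, the shares at no threshold and at 5 CPM were 7.5% and 6.57% higher and 9.21% and 5.62% lower with shRNA 1, 12.4% and 10.3% higher and 9.5% and 7.38% lower with shRNA 2, and 9.38% and 5.65% higher and 4.85% and 3.49% lower for shRNA 2 over shRNA 1. edgeR called 0 members under every scaling and threshold tried, with 4 at an unadjusted p below 0.05 at 5 CPM, and DESeq2 called 3. Library totals gave median log2 folds of 0.20 and 0.42 with shRNA 1 and shRNA 2, in place of 0.07 and 0.23. The group log2 fold changed sign with library totals for LINC00205 (0.038), LINC00674 (0.11), LINC01420 (0.038) and LINC00622 (0.065), with DESeq2's size factors for LINC01127 (-0.019) and with DESeq2's test for LINC00622 (1.10). None of these was called, and the cause was not tested. No paired analysis was possible because shControl has 1 library, whose label gives no replicate number, so the groups share fewer than 2 numbers. Depth limits the members below 5 CPM, whose counting intervals are wide, and the single control limits every comparison with shControl.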
